A study of Mus musculus with 8 samples.

Results

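Fatty acid oxidation was followed through 35 genes that encode the enzymes, carriers and regulators of mitochondrial and peroxisomal beta-oxidation and of ketone metabolism. The genes were taken from a fixed list by an exact match of the gene symbol, and all 35 were found among the 22520 protein-coding genes of a quantile-normalized mRNA-seq table. The table holds 8 libraries of mouse liver microvascular endothelial cells (ECs), which the labels call liver microvesicular cells, from C57BL/6 mice at postnatal day 14. The 4 wild type (WT) libraries came from Lrp1 f/f; Cdh5-CreER-/- littermates, and the 4 LRP1 KO libraries, called LRP1 eKO here, from Lrp1 f/f; Cdh5-CreER+/- mice. Both groups therefore carried the floxed Lrp1 alleles, and the knockout group alone carried the inducible CreER recombinase, which the promoter of the endothelial gene Cdh5 drives, so that the loss of Lrp1 and the presence of CreER cannot be told apart. LRP1 is a large endocytic receptor of the LDL receptor family, and the study compared the genotypes to find genes that respond to its loss in ECs. The ECs were selected with PECAM-1 antibody on magnetic beads, so the libraries hold whatever such a selection retains, and whether the cells were cultured before RNA extraction is not given in the sources used here.

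Beta-oxidation shortens fatty acids from the carboxyl end. A fatty acid is first joined to coenzyme A by a synthetase, and the long chains cross into the mitochondrion as carnitine esters. There an acyl-CoA dehydrogenase, an enoyl-CoA hydratase, a hydroxyacyl-CoA dehydrogenase and a thiolase act in turn, and each round releases acetyl-CoA. Electrons taken by the dehydrogenases leave through the electron transfer flavoprotein (ETF) and its oxidoreductase to ubiquinone. Peroxisomes run a parallel pathway for very long and branched chains, the liver turns surplus acetyl-CoA into ketone bodies, and PPAR alpha with its coactivator PGC-1 alpha drives many of these genes in liver, heart and muscle. In ECs fatty acid oxidation is known for its carbon supply to nucleotide synthesis and for its role in vessel sprouting.

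Promoter sequence is shown for the genes on which the results below turn, namely the close paralogs Acot1 and Acot2, the consecutive matrix enzymes Echs1 and Hadh, and the trifunctional protein genes Hadha and Hadhb, which start back to back. The sequences are the exon-free parts of RefSeq promoter windows on GRCm38.p6, which run from 250 bases before to 50 bases after each annotated start, and each is written from 5′ to 3′ on the strand of the gene. Capitals mark the CCAAT box on either strand (CCAAT, or ATTGG where the box is on the other strand) and, in Echs1, the nuclear receptor core site AGGTCA.
Acot1, chr12:84009252-84009489, + strand: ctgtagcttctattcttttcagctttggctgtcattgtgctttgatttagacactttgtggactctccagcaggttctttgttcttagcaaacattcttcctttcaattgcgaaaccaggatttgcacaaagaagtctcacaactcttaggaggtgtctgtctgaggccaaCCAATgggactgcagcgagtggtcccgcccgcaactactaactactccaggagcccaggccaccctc
Acot2, chr12:83987611-83987860, + strand: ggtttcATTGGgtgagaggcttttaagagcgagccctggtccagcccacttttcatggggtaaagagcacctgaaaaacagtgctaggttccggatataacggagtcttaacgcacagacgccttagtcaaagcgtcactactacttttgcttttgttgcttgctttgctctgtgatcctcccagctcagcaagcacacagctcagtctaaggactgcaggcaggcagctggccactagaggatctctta
Echs1, chr7:140116477-140116671, - strand: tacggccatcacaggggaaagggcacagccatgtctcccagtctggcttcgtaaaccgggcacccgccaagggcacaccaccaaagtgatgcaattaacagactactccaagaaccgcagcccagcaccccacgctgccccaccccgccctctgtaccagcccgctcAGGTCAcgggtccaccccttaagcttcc
Hadh, chr3:131272102-131272351, - strand: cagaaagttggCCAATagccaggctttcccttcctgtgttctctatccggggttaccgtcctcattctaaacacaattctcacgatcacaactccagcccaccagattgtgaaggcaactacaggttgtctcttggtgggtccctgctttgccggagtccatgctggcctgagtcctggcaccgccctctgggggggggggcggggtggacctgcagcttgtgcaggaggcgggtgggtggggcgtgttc
Hadhb, between its first exon and that of Hadha, chr5:30155163-30155247, + strand: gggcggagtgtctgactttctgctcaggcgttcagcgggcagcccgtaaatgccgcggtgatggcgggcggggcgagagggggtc
The last stretch is the whole of the 85 bases that separate the outermost annotated first exons of Hadha and Hadhb, which are transcribed away from each other. The RefSeq starts of this pair lie at 30154980 and 30155253 on chromosome 5, with 272 bases between them.

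A promoter window was given for 30 of the 35 genes, all but Cpt1b, Acaa2, Hsd17b4, Decr1 and Acat1. Both strands of the whole windows were searched for 7 motifs. A gene was counted if any of its windows held the motif, whereas the share of all is per window. These are unlike measures, so the shares are only a rough guide. The core site AGGTCA was found for 5 of the 30 genes (Acadm, Acadvl, Cpt1a, Cpt1c and Echs1), or 16.7%, against 16.3% of all 32851 windows. The CCAAT box was found for 14 genes, or 46.7%, against 37.4% of all windows. The NRF1 site, with the letters GCGC on either side of AT, was found in the windows of Etfdh and Ppara, or 6.67%, against 0.971% of all. The estrogen-related receptor element TCAAGGTCA (0.423% of all windows), the direct repeat of AGGTCA with 1 base between the copies, which PPAR alpha with RXR can bind (0.0396%), the cAMP response element TGACGTCA (1.79%) and the E-box CACGTG (7.15%) were found in none of the 30. The first 2 of these hold the core site within them. Exact letters in a short window are a description of sequence and not of binding.

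Every library summed to a signal between 484445 and 485947 because of the normalization. Read depth cannot be read from such values, and what the signal was scaled to beforehand is not given in the sources used here. Levels are therefore compared between genotypes, and ranks between genes are given below as a description only. Lrp1 itself was lower in LRP1 eKO libraries, with signals of 61.6, 59.0, 56.2 and 85.1 in WT libraries and 6.01, 2.16, 5.15 and 4.32 in LRP1 eKO libraries. The markers that define the labelled cell type were detected, with signals of 2.09 ± 0.416 in WT libraries and 3.02 ± 0.911 in those of LRP1 eKO for Pecam1 and 1.86 ± 0.430 in WT libraries and 3.70 ± 1.34 in those of LRP1 eKO for Cdh5. Among other EC genes, Eng had 12.4 ± 1.20 in WT libraries and 24.3 ± 3.86 in those of LRP1 eKO and Esam had 14.98 ± 1.03 in WT libraries and 17.8 ± 0.973 in those of LRP1 eKO. Col1a2, a fibrillar collagen of stellate cells and fibroblasts, had 833 ± 89.5 in WT libraries and 729 ± 91.0 in those of LRP1 eKO. By mean signal over all 22520 genes, Pecam1 lay at percentile 56.0, Cdh5 at 56.8, Stab2 at 48.3, Clec4g at 46.5 and Col1a2 at 99.6. The signal may not be per length, so these ranks are a description. What share of the RNA came from ECs was not tested. Genotypes were compared with limma on log2(signal + 1) over the 11391 genes whose signal reached 1 in 4 or more libraries, with Benjamini-Hochberg adjustment over all of them. A gene is called higher or lower at an adjusted p below 0.05, fold changes are LRP1 eKO minus WT on that log2 scale, which understates the change of low genes, and errors are SD with n = 4 per genotype. Signals listed for each library follow the order of replicates 1 to 4. No label says that the libraries of a genotype came from separate mice, so the p-values measure the spread between libraries.

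Most of the called fatty acid oxidation genes were lower in LRP1 eKO libraries. Of the 35 genes, 32 passed the signal filter, and 18 of these were lower, 1 was higher and 13 were not called. Among all genes tested, 22.2% were lower and 19.0% were higher. The gene list was chosen with earlier results of these data known, so this contrast is a description and not an independent test. The median log2 fold change of the 32 genes was -0.16, against -0.0095 for all genes tested, and 25 of the 32 values were below 0. The lower genes span the thioesterase Acot1, the matrix thiolase Acaa2, the hydratase Echs1, the dehydrogenase Hadh and all 3 genes of the electron transfer flavoprotein system. The higher gene was Acox3, a peroxisomal acyl-CoA oxidase for branched chains. The changes were small, since Acot1 alone passed 2-fold (1.66% of all genes tested did so), which it no longer did with a pseudocount of 5. The summed signal of the 35 genes was 1033 to 1114 in WT libraries and 873 to 906 in LRP1 eKO libraries. In the same libraries 10 of 11 hepatocyte markers and all 6 skeletal muscle markers tested were lower, and their part in these counts was not tested.

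**Figure D1:**
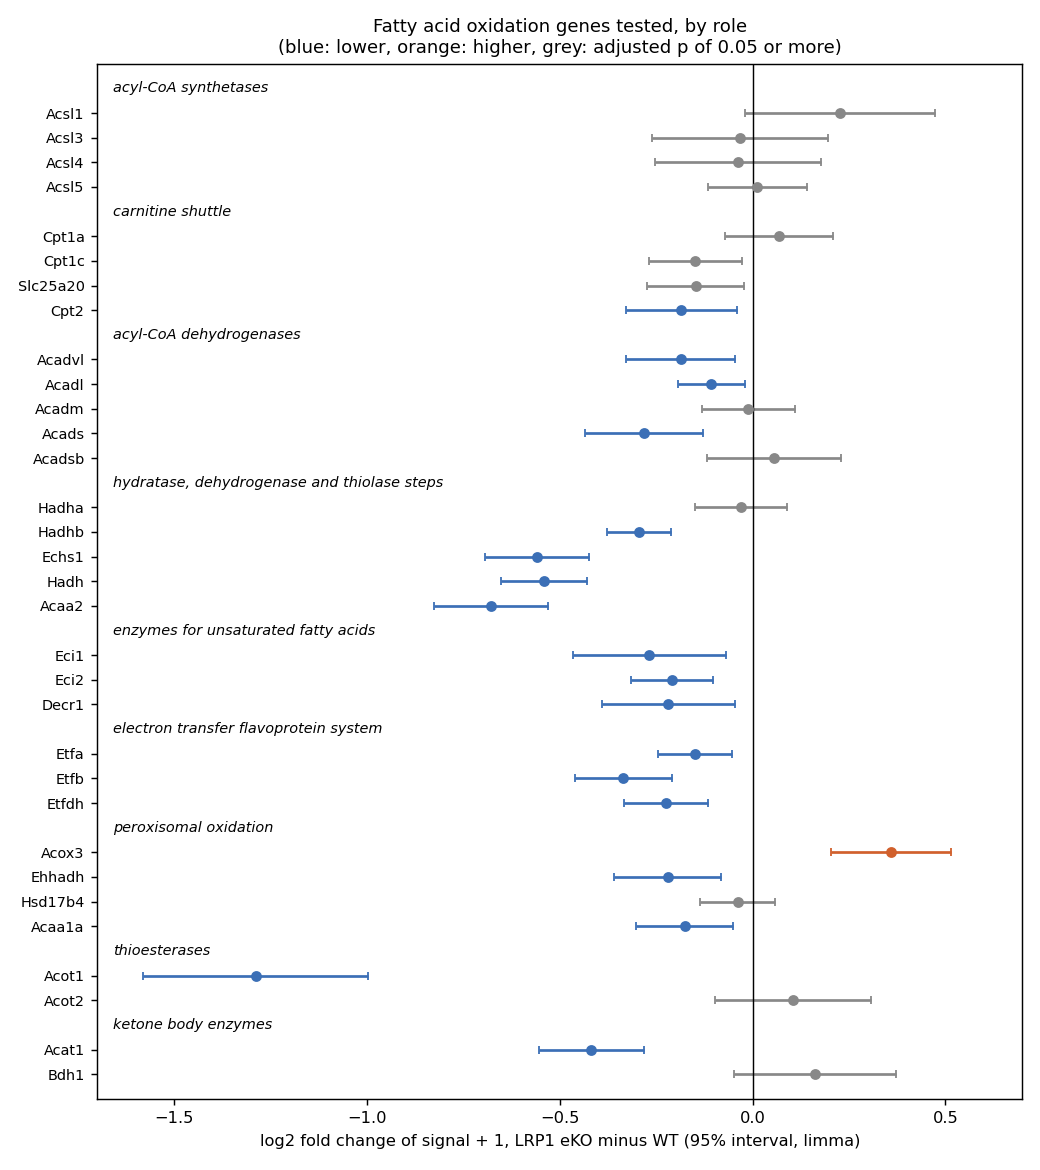
Log2 fold change of signal + 1 (LRP1 eKO minus WT) for the 32 genes tested, grouped by role, with limma's 95% interval as the bar. The 18 lower genes (blue) sit between -1.29 and -0.11, Acox3 (orange) sits at 0.36, and grey genes were not called.

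Every LRP1 eKO library lay below every WT library for 19 of the 32 genes, against 22.5% of all genes tested, and above for 1 gene, against 20.0%. The 19 genes are 17 of the lower genes, all but Acadvl, together with Cpt1c and Slc25a20, which were not called. When each library was left out in turn, 11 of the lower genes and Acox3 were called in all 8 fits. The other 7 lower genes (Cpt2, Acadl, Acadvl, Decr1, Acaa1a, Eci1 and Ehhadh) lost the call in at least 1 fit, and the values are given with each gene. A fit without the filter on low values called 13 genes lower, without Cpt2, Acadvl, Eci1, Decr1 and Acaa1a. For these alternative fits no share over all genes was computed, so whether such stability is particular to the list was not tested. WT replicate 4 was the highest WT library for 14 of the 18 lower genes and for 18 of the 32 genes tested. Its share over the whole table was not computed, so this count is a description.

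**Figure D2:**
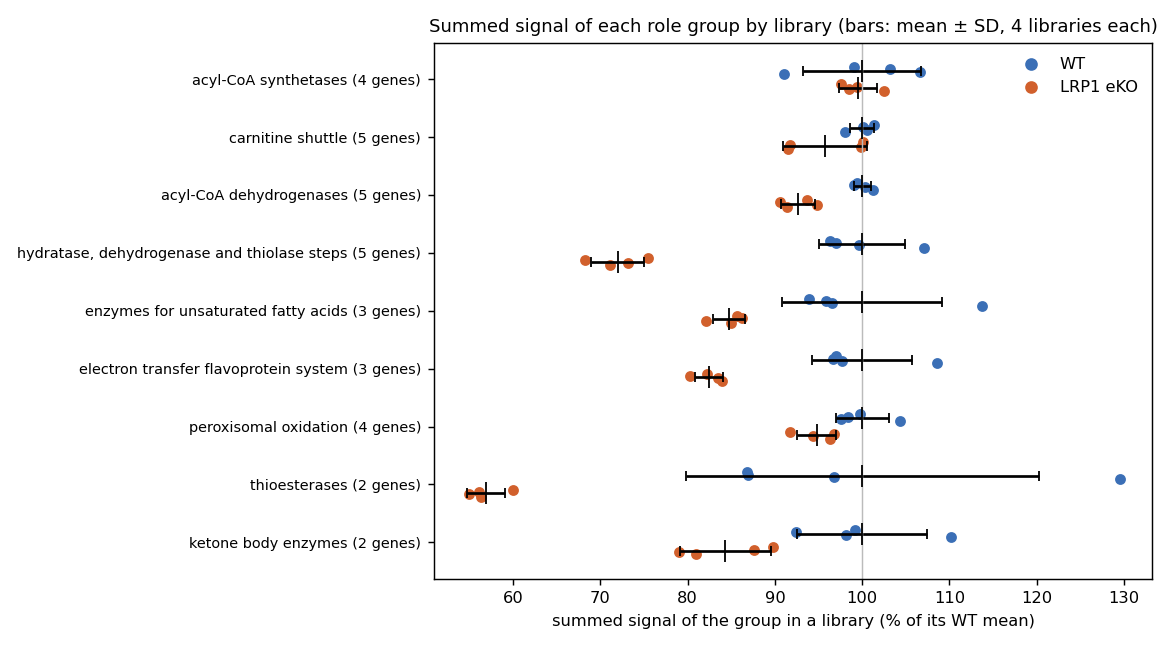
Summed signal of each role group in each library, as a percentage of the WT mean of that group, with the mean ± SD of 4 libraries as the bar. The LRP1 eKO libraries (orange) lie well to the left of WT (blue) for the hydratase, dehydrogenase and thiolase steps and for the thioesterases. The thioesterase group holds Acot1, which was lower, and Acot2, which was not called. The genotypes overlap for the acyl-CoA synthetases and the carnitine shuttle.

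By role, the share of lower genes ranged from 0 of 4 synthetases to all 3 electron transfer flavoprotein genes, and differences between roles were not tested. None of the 4 long-chain acyl-CoA synthetases, which activate fatty acids, passed the test. Acsl1 had signals of 2.97 ± 0.258 in WT libraries and 3.68 ± 0.760 in those of LRP1 eKO (log2 fold change 0.23, standard error 0.11, adjusted p = 0.13), and it was called higher without LRP1 eKO replicate 2 (adjusted p = 0.026). Acsl3 (7.30 ± 0.491 in WT libraries and 7.18 ± 1.28 in those of LRP1 eKO), Acsl4 (33.6 ± 4.57 in WT libraries and 32.5 ± 2.43 in those of LRP1 eKO) and Acsl5 (22.6 ± 1.63 in WT libraries and 22.7 ± 0.713 in those of LRP1 eKO) had log2 fold changes between -0.04 and 0.01. Acsl4, which prefers arachidonic acid, had its lowest WT value in replicate 4.

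Of the carnitine shuttle, which carries long chains across the mitochondrial membranes, 1 of 4 tested genes was lower. Cpt1a (ENSMUSG00000024900, chr19:3322334-3385733, + strand), the rate-limiting transferase of the outer membrane, had signals of 38.6, 40.1, 40.0 and 34.7 in WT libraries and 42.2, 37.5, 42.6 and 38.5 in LRP1 eKO libraries. The genotypes overlapped, and the difference of 0.07 (95% interval -0.07 to 0.21, adjusted p = 0.41) was not called. Cpt2 (ENSMUSG00000028607, chr4:107903981-107923610, - strand), the transferase of the inner membrane that returns the chain to coenzyme A, had signals of 14.1, 14.0, 14.1 and 14.2 in WT libraries and 13.7, 12.3, 12.5 and 10.8 in LRP1 eKO libraries. The WT libraries were nearly identical and every LRP1 eKO library lay below them (log2 fold change -0.18, standard error 0.06, adjusted p = 0.044). This call was kept without LRP1 eKO replicate 1 (adjusted p = 0.019) and lost when any other library was left out (adjusted p between 0.060 and 0.10). The carrier Slc25a20, which exchanges acylcarnitine for carnitine, had 16.5 ± 1.25 in WT libraries and 14.8 ± 0.288 in those of LRP1 eKO (log2 fold change -0.15, standard error 0.06, adjusted p = 0.061). Cpt1c, the form best known from neurons, had 16.3 ± 0.909 in WT libraries and 14.6 ± 0.641 in those of LRP1 eKO (log2 fold change -0.15, standard error 0.05, adjusted p = 0.052), and it was called lower without WT replicate 4 (adjusted p = 0.045). Cpt1b, the muscle form, fell under the filter with 1.12 ± 0.281 in WT libraries and 0.803 ± 0.102 in those of LRP1 eKO, and a fit of all genes without the filter gave a log2 fold change of -0.23, adjusted p = 0.18. Of the 50-base stretches of Cpt1b transcripts, 80.4% also occur in the overlapping gene Gm44502, so its reads may be split.

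The acyl-CoA dehydrogenases take the first electrons from the chain, and each prefers a chain length. Of the 5, 3 were lower and 2 were not called. Acadvl (ENSMUSG00000018574, chr11:70010183-70015411, - strand), for very long chains, had signals of 46.1, 43.8, 44.9 and 49.3 in WT libraries and 40.8, 36.6, 44.5 and 39.6 in LRP1 eKO libraries. LRP1 eKO replicate 3 reached the range of WT, and the difference was small (log2 fold change -0.19, standard error 0.06, adjusted p = 0.039). The Acadvl call was kept without WT replicate 2 (adjusted p = 0.044) or LRP1 eKO replicate 3 (0.018) and lost in the other 6 fits (0.059 to 0.089), and 42.9% of its exon bases lie opposite the gene Dvl2, whose reads cannot be told apart from its own unless counting used strand. Acadm (ENSMUSG00000062908, chr3:153922357-153944632, - strand), the medium-chain enzyme, had signals of 21.8, 20.7, 21.1 and 21.9 in WT libraries and 21.0, 22.6, 19.4 and 21.8 in LRP1 eKO libraries. These overlap fully between genotypes (log2 fold change -0.01, 95% interval -0.13 to 0.11).

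Acads (ENSMUSG00000029545, chr5:115110299-115119346, - strand), the short-chain dehydrogenase, had signals of 22.6, 21.5, 22.2 and 26.3 in WT libraries and 18.3, 20.4, 18.7 and 17.8 in LRP1 eKO libraries. Every LRP1 eKO library was below every WT library (log2 fold change -0.28, standard error 0.07, adjusted p = 0.0094). Acadl, for long chains, was lower by a smaller amount, at 61.4 ± 0.592 in WT libraries and 57.0 ± 1.73 in those of LRP1 eKO (log2 fold change -0.11, standard error 0.04, adjusted p = 0.0496). Its call was kept without WT replicate 4 (adjusted p = 0.034) and lost without any other library (0.068 to 0.12). Acadsb, which acts on short branched chains from isoleucine, had 30.9 ± 3.65 in WT libraries and 32.0 ± 1.08 in those of LRP1 eKO and was not called (log2 fold change 0.06, adjusted p = 0.59).

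The hydratase, dehydrogenase and thiolase steps that follow held 3 of the 4 largest decreases, with 4 of 5 genes lower and each of the 4 called in all 8 fits that left out a library. The summed signal of these 5 genes was 292 to 325 in WT libraries and 207 to 229 in LRP1 eKO libraries. Acaa2 (ENSMUSG00000036880, chr18:74779197-74806208, + strand), the thiolase that releases acetyl-CoA in the matrix, had signals of 92.9, 91.3, 97.7 and 107 in WT libraries and 63.8, 56.1, 64.6 and 57.1 in LRP1 eKO libraries. The lowest WT library lay well above the highest LRP1 eKO library, and the mean fell to 62.1% of WT (log2 fold change -0.68, standard error 0.07, adjusted p = 5.1e-05).

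Echs1 (ENSMUSG00000025465, chr7:140105710-140116476, - strand), the short-chain enoyl-CoA hydratase whose promoter stretch above holds the AGGTCA site, had signals of 73.8, 71.5, 73.7 and 84.7 in WT libraries and 54.5, 49.0, 49.6 and 51.2 in LRP1 eKO libraries. The groups did not overlap and the LRP1 eKO mean was 67.3% of WT (log2 fold change -0.56, standard error 0.06, adjusted p = 9.7e-05). Hadh (ENSMUSG00000027984, chr3:131233419-131272101, - strand), the short-chain hydroxyacyl-CoA dehydrogenase that acts next, had signals of 37.4, 38.4, 38.0 and 41.7 in WT libraries and 27.4, 24.9, 26.6 and 26.7 in LRP1 eKO libraries. Its decrease was nearly the same size, to 67.9% of WT (log2 fold change -0.54, standard error 0.05, adjusted p = 3.5e-05).

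The trifunctional protein performs the same 3 steps on long chains at the inner membrane, and its alpha and beta subunits are encoded by Hadha and Hadhb. Hadhb (ENSMUSG00000059447, chr5:30155248-30184593, + strand), which carries the thiolase, had signals of 53.1, 53.6, 54.7 and 54.7 in WT libraries and 44.4, 42.9, 44.6 and 43.7 in LRP1 eKO libraries. The libraries of each genotype lay close together and apart from the other genotype (log2 fold change -0.29, standard error 0.04, adjusted p = 0.00026). Hadha (ENSMUSG00000025745, chr5:30118304-30155162, - strand), which carries the hydratase and the dehydrogenase, had signals of 35.2, 39.5, 38.4 and 36.9 in WT libraries and 38.7, 34.3, 36.7 and 37.2 in LRP1 eKO libraries. The genotypes overlapped, and Hadha was not called (log2 fold change -0.03, 95% interval -0.15 to 0.09, adjusted p = 0.67). Of the 50-base stretches of Hadhb transcripts, 57.5% also occur in another gene, most of them in Gm13910, and none of those of Hadha do.

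**Figure D3:**
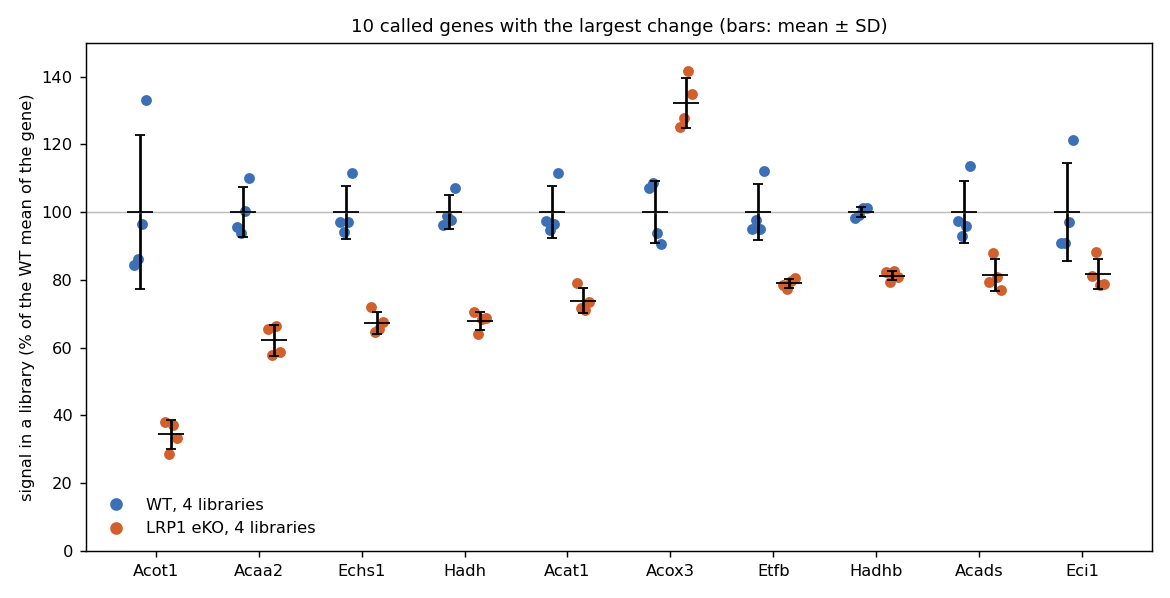
Signal in each library for the 10 called genes with the largest change, as a percentage of the WT mean of the gene, with the mean ± SD of 4 libraries as the bar. Acot1 fell to 34.4% of WT, the other 8 lower genes lie between 62.1% and 81.7%, and Acox3 lies at 132%.

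All 3 enzymes that prepare unsaturated chains for the cycle were lower. Eci1 (ENSMUSG00000024132, chr17:24426641-24439348, + strand), an isomerase that shifts the bond of the chain into the position the hydratase accepts, had signals of 18.3, 18.4, 19.6 and 24.5 in WT libraries and 16.4, 17.8, 15.9 and 15.9 in LRP1 eKO libraries. WT replicate 4 was the highest WT library, and every LRP1 eKO library was below all 4 (log2 fold change -0.27, standard error 0.09, adjusted p = 0.036). The Eci1 call was lost without WT replicate 3 (adjusted p = 0.059) or LRP1 eKO replicate 1 (0.073), 3 (0.085) or 4 (0.086). The related isomerase Eci2 was lower at 43.0 ± 2.37 in WT libraries and 37.1 ± 0.765 in those of LRP1 eKO (log2 fold change -0.21, standard error 0.05, adjusted p = 0.0070) and was called in every such fit. Decr1, the dienoyl-CoA reductase, was lower at 20.4 ± 2.55 in WT libraries and 17.3 ± 0.605 in those of LRP1 eKO (log2 fold change -0.22, standard error 0.08, adjusted p = 0.046), and its call was lost without WT replicate 3 (adjusted p = 0.073) or without LRP1 eKO replicate 1 (0.089), 2 (0.076), 3 (0.11) or 4 (0.064).

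The electron transfer flavoprotein system was lower as a whole, with all 3 genes called with every library and in each of the 8 fits that left 1 out. Etfdh (ENSMUSG00000027809, chr3:79603788-79629500, - strand), the oxidoreductase that hands the electrons to ubiquinone, had signals of 20.5, 18.8, 21.5 and 20.4 in WT libraries and 17.4, 16.9, 17.4 and 17.1 in LRP1 eKO libraries. The LRP1 eKO libraries lay within a narrow range below all WT libraries (log2 fold change -0.22, standard error 0.05, adjusted p = 0.0056). Etfb (ENSMUSG00000004610, chr7:43444083-43457800, + strand), the beta subunit of the flavoprotein, had signals of 117, 120.1, 117 and 138 in WT libraries and 96.3, 95.0, 97.9 and 98.8 in LRP1 eKO libraries. WT replicate 4 stood above the other WT libraries, and the LRP1 eKO libraries again lay close together (log2 fold change -0.33, standard error 0.06, adjusted p = 0.0014). The alpha subunit gene Etfa was lower by less, at 51.5 ± 1.62 in WT libraries and 46.3 ± 1.42 in those of LRP1 eKO (log2 fold change -0.15, standard error 0.04, adjusted p = 0.019). Of the 50-base stretches of Etfb transcripts, 57.7% also occur in the overlapping gene Gm45233.

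Of the 4 genes of peroxisomal oxidation, 2 were lower, 1 was higher and 1 was not called. Acox3 (ENSMUSG00000029098, chr5:35583040-35615352, + strand), which opens the cycle for branched chains, had signals of 7.05, 7.13, 6.17 and 5.95 in WT libraries and 8.23, 8.40, 9.31 and 8.86 in LRP1 eKO libraries. Every LRP1 eKO library was above every WT library, the single such case among the 32 genes, and the mean was 132% of WT (log2 fold change 0.36, standard error 0.07, adjusted p = 0.0029). Ehhadh, the peroxisomal bifunctional enzyme and a classical PPAR alpha target, was lower at 2.48 ± 0.132 in WT libraries and 1.99 ± 0.146 in those of LRP1 eKO (log2 fold change -0.22, standard error 0.06, adjusted p = 0.018). Its call was lost without WT replicate 3 (adjusted p = 0.051) or LRP1 eKO replicate 1 (0.052). The thiolase Acaa1a was lower at 43.4 ± 3.50 in WT libraries and 38.2 ± 0.579 in those of LRP1 eKO (log2 fold change -0.18, standard error 0.06, adjusted p = 0.031), and 26.7% of its 50-base stretches also occur in its paralog Acaa1b. The Acaa1a call was lost without WT replicate 1 (adjusted p = 0.057) or without LRP1 eKO replicate 1 (0.076), 2 (0.051), 3 (0.067) or 4 (0.059). Hsd17b4, the other bifunctional enzyme, had 32.7 ± 0.652 in WT libraries and 31.8 ± 1.28 in those of LRP1 eKO and was not called (log2 fold change -0.04, adjusted p = 0.50).

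The largest change of the pathway was in a thioesterase. Acot1 (ENSMUSG00000072949, chr12:84009490-84018371, + strand), which releases free fatty acids from acyl-CoA in the cytosol and is a known PPAR alpha target, had signals of 8.21, 8.39, 9.40 and 13.0 in WT libraries and 3.72, 2.78, 3.63 and 3.26 in LRP1 eKO libraries. WT replicate 4 was the highest, and the lowest WT library was still above every LRP1 eKO library by a wide margin. The LRP1 eKO mean was 34.4% of WT (log2 fold change -1.29, standard error 0.13, adjusted p = 6.5e-05), and the largest adjusted p among the fits that left out a library was 0.00050. Acot2 (ENSMUSG00000021226, chr12:83987861-83993873, + strand), a mitochondrial paralog nearby on the chromosome, had 4.21 ± 0.622 in WT libraries and 4.58 ± 0.418 in those of LRP1 eKO, with overlapping genotypes (log2 fold change 0.10, 95% interval -0.10 to 0.31, adjusted p = 0.38). The paralogs share sequence, since 23.5% of the 50-base stretches of Acot1 occur in Acot2 and 24.5% of those of Acot2 in Acot1. Each signal may therefore hold reads of the other. With any other gene the shares were 32.7% for Acot1 and 27.7% for Acot2.

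For both of these pairs of neighbouring genes, ratios within each library were compared, a choice made after the values were seen. The ratio of Acot1 to Acot2 signal was 2.11, 2.25, 2.29 and 2.53 in WT libraries and 0.799, 0.551, 0.900 and 0.709 in LRP1 eKO libraries. The genotypes did not overlap, and the log2 ratio differed by -1.65. The ratio of Hadhb to Hadha signal was 1.51, 1.36, 1.42 and 1.48 in WT libraries and 1.15, 1.25, 1.22 and 1.18 in LRP1 eKO libraries, with a log2 difference of -0.27 and no overlap. An exact permutation of the log2 ratios gave p = 0.029 for each pair, the smallest value possible with 4 libraries per genotype. Since the pairs were chosen for the unequal change of their partners, these p-values cannot be read as a test. The ratios are a description. The absolute ratios depend on transcript length where the signal is not per length, but that factor is the same in every library. A ratio shows unequal change within a pair, not that either gene kept its level.

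**Figure D4:**
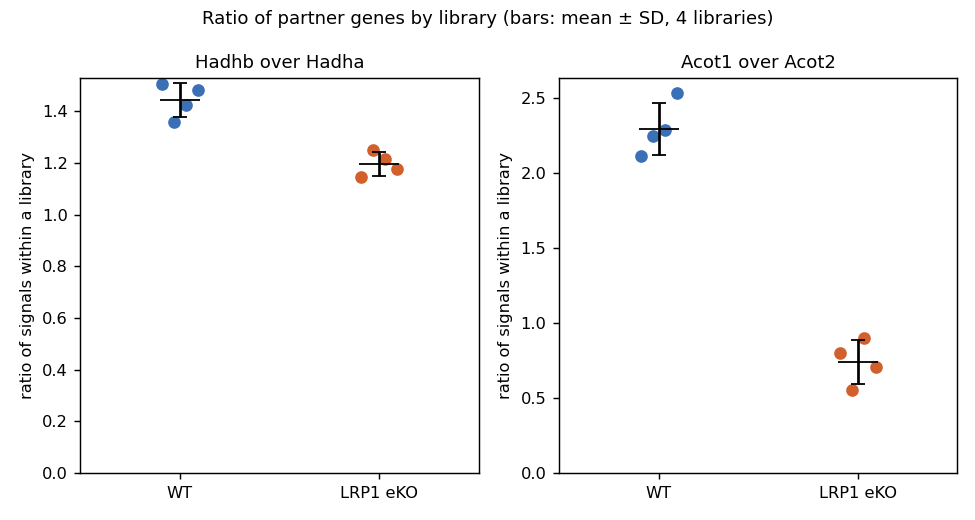
Ratio of the signals of partner genes within each library, Hadhb over Hadha on the left and Acot1 over Acot2 on the right, with the mean ± SD of 4 libraries as the bar. The mean ratio of Hadhb to Hadha was 1.44 in WT libraries and 1.20 in those of LRP1 eKO, and that of Acot1 to Acot2 was 2.30 and 0.740.

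Of the ketone body enzymes, Acat1 (ENSMUSG00000032047, chr9:53580522-53610382, - strand), the mitochondrial acetoacetyl-CoA thiolase that serves both ketone synthesis and use, had signals of 29.2, 28.4, 29.0 and 33.5 in WT libraries and 23.8, 21.6, 21.3 and 22.1 in LRP1 eKO libraries. Every LRP1 eKO library was below every WT library, at a mean of 73.9% of WT (log2 fold change -0.42, standard error 0.06, adjusted p = 0.00062). Bdh1, which interconverts acetoacetate and hydroxybutyrate, had 10.8 ± 1.02 in WT libraries and 12.3 ± 1.61 in those of LRP1 eKO and was not called (log2 fold change 0.16, standard error 0.09, adjusted p = 0.19).

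The regulators had signals below 1 in every library and fell under the filter. Ppara (ENSMUSG00000022383, chr15:85734983-85802819, + strand) had signals of 0.514, 0.424, 0.289 and 0.185 in WT libraries and 0.0952, 0.143, 0.203 and 0.463 in LRP1 eKO libraries. Ppargc1a (ENSMUSG00000029167, chr5:51454250-51567726, - strand) had signals of 0.173, 0.279, 0.145 and 0.242 in WT libraries and 0.0220, 0.118, 0.0610 and 0.126 in LRP1 eKO libraries. The Ppara libraries overlapped between genotypes, and each LRP1 eKO library of Ppargc1a was below each WT library. In a fit of all genes without the filter neither was called, with a log2 fold change of -0.14, adjusted p = 0.50 for Ppara and of -0.16, adjusted p = 0.059 for Ppargc1a.

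Around this core, 106 other genes of fatty acid uptake, activation, oxidation, ketone metabolism and PPAR regulation were listed, of which 78 were tested, 21 were lower and 9 were higher, with a median log2 fold change of -0.05. These shares of 26.9% lower and 11.5% higher compare with the 22.2% and 19.0% of all genes tested, so the share of lower genes lay near that of the whole table. Among 10 other mitochondrial acyl-CoA oxidation enzymes tested, 4 were lower and 0 were higher by limma, as were 4 and 0 of 7 other ketone body genes and 2 and 0 of 5 other activation, carnitine and control genes. Among 18 other peroxisomal genes tested, 5 were lower and 1 was higher. Of 10 uptake and binding genes, 2 were lower and 2 were higher, and of 22 other PPAR and PGC-1 regulators and targets, 4 were lower and 4 were higher (median 0.05). Of 6 other thioesterases, 0 were lower by limma and 2 were higher (median 0.15). The largest decreases were those of Fabp4, the fatty acid-binding protein of capillary ECs and adipocytes (log2 fold change -1.06, standard error 0.14, adjusted p = 0.00041), and of Klf15, a transcription factor of fasting metabolism (log2 fold change -0.82, standard error 0.10, adjusted p = 0.00017). Fabp4 had signals of 188, 182, 182 and 220.3 in WT libraries and 108, 66.7, 109.8 and 90.3 in LRP1 eKO libraries, with no overlap between genotypes, and it alone of the list passed 2-fold. Ech1, an auxiliary isomerase (log2 fold change -0.45, standard error 0.07, adjusted p = 0.00097), and Hsd17b10, a mitochondrial hydroxyacyl-CoA dehydrogenase for branched chains (log2 fold change -0.45, standard error 0.05, adjusted p = 9.2e-05), followed.

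Among the largest called increases were those of Plin2, a lipid droplet coat protein (log2 fold change 0.33, standard error 0.12, adjusted p = 0.045), and of the acyl-CoA binding proteins Acbd5 (log2 fold change 0.31, standard error 0.08, adjusted p = 0.015) and Acbd3 (log2 fold change 0.30, standard error 0.06, adjusted p = 0.0045). Plin2 overlapped between genotypes, since its LRP1 eKO signals were 172, 112, 164 and 136 against 109 to 119 in WT, and its call was kept without LRP1 eKO replicate 2 (adjusted p = 0.0022) and lost without any other library (largest adjusted p 0.12). Without WT replicate 2 or 3 the count of higher genes was 5. Pparg, the PPAR of adipocytes, was not called at 1.44 ± 0.139 in WT libraries and 1.37 ± 0.217 in those of LRP1 eKO (95% interval -0.23 to 0.13). Pdk4, a kinase that turns off pyruvate use, was lower at 13.6 ± 1.69 in WT libraries and 9.96 ± 1.93 in those of LRP1 eKO (log2 fold change -0.43, standard error 0.13, adjusted p = 0.029), and its call was lost when LRP1 eKO replicate 4 or WT replicate 1, 2 or 3 was left out (largest adjusted p 0.072).

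Most markers tested of hepatocytes and skeletal muscle, which oxidize fatty acids, were lower in LRP1 eKO libraries, against 22.2% of all genes tested. In bulk libraries fewer cells of a type and less RNA per cell cannot be told apart. Of 11 hepatocyte markers tested, 10 were lower and Ass1 was higher, and the summed signal of the 18 in the list lay between 1634 and 1694 in WT libraries and between 783 and 1048 in those of LRP1 eKO, most of it from Trf. Ahsg, a plasma protein of hepatocytes, had 41.1 ± 7.73 in WT libraries and 14.0 ± 1.66 in those of LRP1 eKO. Of the skeletal muscle markers, 17 of 18 were in the table and all 6 tested were lower, with sums of 42.0 to 66.7 in WT and 13.5 to 14.8 in LRP1 eKO libraries, the highest in WT replicate 4. Among them Actn3, of the fast fibre Z-disc, had 15.05 ± 1.78 in WT libraries and 8.09 ± 0.401 in those of LRP1 eKO, Myl1, a myosin light chain, had 13.7 ± 4.27 in WT libraries and 1.90 ± 0.190 in those of LRP1 eKO, and Tnnt3, the fast troponin T, had 6.06 ± 2.04 in WT libraries and 0.966 ± 0.180 in those of LRP1 eKO. Of 6 cardiac muscle markers, 2 were tested. Tnnt2 was lower at 16.7 ± 0.256 in WT libraries and 6.18 ± 1.28 in those of LRP1 eKO, Myl7 was not called at 2.27 ± 0.5001 in WT libraries and 3.28 ± 0.781 in those of LRP1 eKO (log2 fold change 0.39, standard error 0.14, adjusted p = 0.056), and the sums of the list were 19.1 to 20.7 and 8.87 to 11.4. In the same lists, the adult muscle genes Myh2, Myh4 and Pvalb, the heart genes Myh6, Nppa and Ryr2 and 6 of the 7 adipocyte markers had signals below 0.1 in every library, Ucp1 being listed at 0 in each. Other muscle markers of these lists lay above that level in WT libraries. Among them were Myh1 (0.199 to 0.421), Casq1 (0.673 to 1.06), Atp2a1 (4.62 to 7.79) and the heart gene Tnni3 (0.728 to 1.11). The part of these cell types in the lower fatty acid oxidation genes was not tested.

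Other lists moved less evenly with genotype. Among all genes tested 19.0% were higher and 22.2% were lower. With so few genes per list, the counts below are descriptions and several lie near those shares. Of 7 EC markers tested, 3 were higher and 0 were lower by limma. The sums of this list were 38.7 to 44.3 in WT and 52.0 to 70.4 in LRP1 eKO libraries, most of it from Eng and Esam. Of 4 sinusoidal EC markers tested, 1 was higher. Their sums overlapped, at 7.84 to 11.7 in WT and 8.38 to 33.0 in LRP1 eKO libraries. Of the EC markers under the filter, Cldn5 was lower in a fit of all genes without it (log2 fold change -0.32, adjusted p = 0.013). In that fit Tek (0.22, adjusted p = 0.082) and Erg (0.20, adjusted p = 0.38) were not called. Macrophage and Kupffer cell markers summed to 112 to 219 in WT libraries and to 722, 52.1, 658 and 387 in LRP1 eKO libraries. LRP1 eKO replicate 2 was the lowest of all, and 1 of 8 tested was higher. When that library was left out, all 8 were called higher by limma (adjusted p between 0.00013 and 0.0033). The call made with all libraries was kept only in that fit. For this fit too no share over all genes was computed. Stellate cell and fibroblast markers summed to 2001 to 2312 and 1756 to 2212, with 2 of 7 tested lower. Cholangiocyte markers summed to 301 to 356 and 233 to 696, with 1 of 3 tested lower, and erythroid markers to 24.6 to 46.2 and 14.6 to 24.7, with the single gene tested lower. WT replicate 4 had the highest muscle sum and the lowest macrophage sum of its group. With WT replicate 4 and LRP1 eKO replicate 2 both left out, an alternative chosen after seeing the data, 15 of the 32 fatty acid oxidation genes were lower and 2 were higher, and Acot1, Acaa2, Echs1 and Hadh were among the lower genes. The share over all genes was not computed for this fit.

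**Figure D5:**
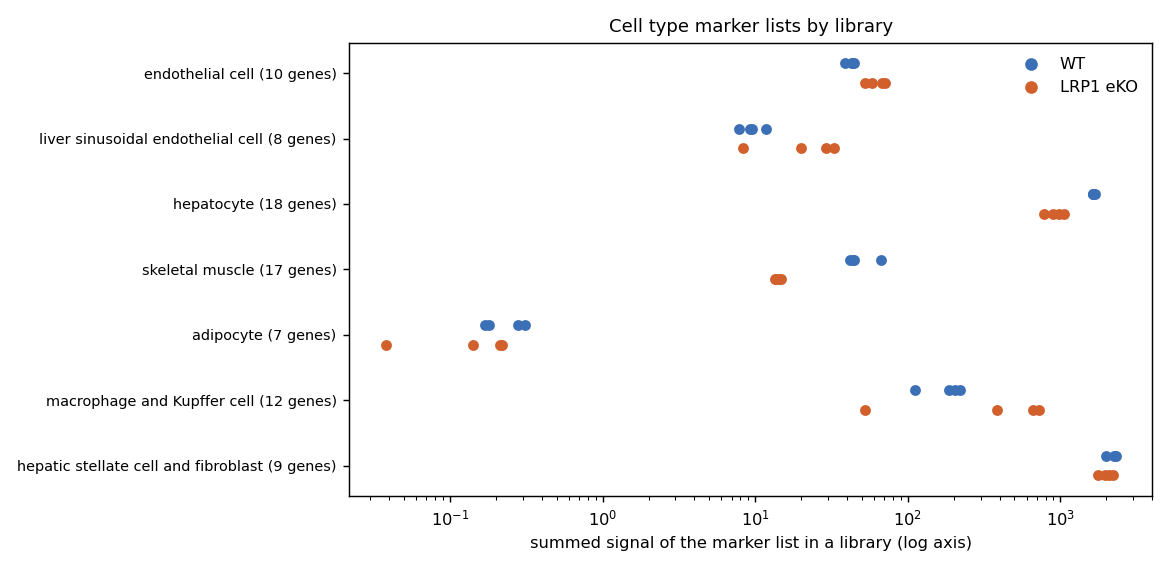
Summed signal of 7 cell type marker lists in each library, on a log axis, with 1 point per library. Hepatocyte and skeletal muscle sums are lower in every LRP1 eKO library than in every WT library. Sums of the endothelial cell list are higher in every LRP1 eKO library, and those of the sinusoidal endothelial list overlap between genotypes. The macrophage and Kupffer cell sums range from 52.1 to 722 among LRP1 eKO libraries.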

How the data were processed

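RNA of mouse liver ECs was sequenced after TruSeq library preparation in 4 WT and 4 LRP1 eKO libraries, each assigned to its genotype and replicate by its title. The authors deposited 1 table with the quantile-normalized signal of each of 22520 protein-coding genes, and how the signal was scaled before that step is not stated. Per the labels, the submitters' processing notes name TopHat2, Cufflinks and mm10, whereas the paper's methods describe STAR and featureCounts on mm10 and not this table. Quantile normalization forces all libraries onto 1 distribution, so depth is unknown and a change shared by most genes would not show.

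Signals were converted to log2(signal + 1), and the 11391 genes whose signal reached 1 in 4 or more libraries were compared by genotype alone with limma (version 3.58.1, R 4.3.3). Moderation followed a mean-variance trend, and p-values were adjusted over these genes by the Benjamini-Hochberg method. The edgeR test of the paper needs counts and was not used. The calculation was tested on simulated data. Promoter windows came from RefSeq (GRCm38.p6), and gene positions, overlaps and shared 50-base stretches from GENCODE on GRCm38. The alternatives left out each library in turn, blocked on the replicate number, weighted the arrays, moderated robustly or with no trend, centred each library on its trimmed mean (30% from each end), dropped the filter or set it at a mean signal of 5, or used a pseudocount of 0.1 or 5. One more, leaving out WT replicate 4 and LRP1 eKO replicate 2 together, was added after seeing the data.

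The fatty acid oxidation genes and the lists were chosen with earlier results of these data known. Signals are given per library for Cpt1a, Cpt2, Acadm, Acadvl, Hadha, Etfdh, Ppara, Ppargc1a and the 10 called genes with the largest change, and as group means for the rest. Of the other pathway genes, genes among the 4 largest increases and decreases, Pparg and Pdk4 are named, and of each marker list at most the 3 highest genes. Results of some genes under this rule are not reported here. Pecam1, Cdh5, Cldn5, Tek, Erg, Stab2, Clec4g, Myh1, Casq1, Atp2a1, Tnni3 and the markers named for signals below 0.1 fall outside this rule. They were chosen after their values were seen.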

Additional observations from a re-analysis of the deposited data

Results flagged for a closer look

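In 7 of 90 groups of 4 libraries 1 library lay far from the other 3, where chance gives about 1 in 20 groups, or 4.5 of 90. The measure is the gap from that library to its nearest neighbour as a share of the group's range, and a library counts as far above Dixon's 95% critical value for 4 samples. WT replicate 4 was the library in 6 of the 7. It was the lowest WT library for Acsl4 (gap of 0.981 of the range) and Acbd3 (0.965), and the highest for Slc25a20 (0.886), Etfb (0.838), Acat1 (0.841) and Ech1 (0.923). WT replicate 1 was the highest WT library for Cpt1c (0.860). Etfb and Acat1 were called lower without WT replicate 4 as well.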

How the results depend on the processing

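The number of lower genes was 18 with all libraries, between 12 and 17 when each library was left out in turn, 13 with no filter on low values, 16 without the trend, 17 with robust moderation, 19 after centring on a trimmed mean and 15 with WT replicate 4 and LRP1 eKO replicate 2 left out together. The number of higher genes was 1, and it was 2 with array weights, 2 with both of those libraries left out and between 1 and 2 with each library left out. The number past 2-fold was 1, and 0 with a pseudocount of 5. Of the other pathway genes 9 were higher and 21 lower, 5 and 15 with no filter, 7 and 15 with a mean signal of at least 5, 12 and 23 with array weights, and between 5 and 8 and between 15 and 19 with each library left out. The causes were not tested. Over the named genes and alternatives, 506 of 573 values kept their direction and their side of the threshold, 51 kept only the direction, 7 passed the threshold under the alternative and 9 changed sign, none of them of a called gene. The sign changes were Acadsb (-0.0020 with array weights, -0.010 with both libraries left out, and -0.017 to 0.11 with each library left out), Acsl5 (-0.030 to 0.040), Hadha (-0.059 to 0.0012), Acsl3 (-0.13 to 0.043) and Acadm (-0.042 to 0.029) with each library left out. With the replicate block 15 genes were lower and 1 was higher. The correlations of the deviations of same-numbered libraries were -0.086, -0.13, 0.18 and 0.038, and in no case did a library correlate best with its own number. These values gave no sign that the replicate numbers pair the libraries, but so few correlations cannot exclude a pairing. Depth is unknown, so precision rests on 4 libraries per genotype, and genes with low signals, such as Ppara and Ppargc1a, were not tested with the filter.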
